A study of Homo sapiens with 2 samples.

Results

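The amino acid transporters described here are the genes of 7 solute carrier (SLC) families that carry amino acids across membranes. They were chosen by symbol, as every row of the deposited table whose symbol starts with SLC1A, SLC3A, SLC6A, SLC7A, SLC36A, SLC38A or SLC43A, which gave 57 of 18930 genes. The study reports bulk RNA sequencing of dacarbazine-resistant (DR) and wild-type (WT) A375 cells, a human melanoma line. There was 1 DR-labelled library and 1 WT-labelled library. The study derived the DR cells by exposing A375 to rising concentrations of dacarbazine (DTIC), an alkylating drug, and keeping the survivors, while the labels give 105 days of the drug for the WT sample as well as for the DR sample. Each count column was assigned by the sample description that bears its name, neither of which says wild type, so that every direction given rests on those descriptions.

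Cells take up amino acids through carriers that differ in substrate and in what drives them. Sodium-driven carriers of the SLC1A, SLC6A and SLC38A families load the cell with neutral amino acids such as glutamine, alanine and serine. The SLC7A light chains join a heavy chain of the SLC3A family in the membrane and exchange an amino acid inside the cell for another outside. A further branch of SLC7A takes up the cationic amino acids arginine and lysine without a heavy chain. Carriers of the SLC36A and SLC38A families on the lysosome release amino acids and report them to the growth kinase mTORC1. The prefixes also take in genes that carry other substrates, among them the monoamine, GABA, taurine and creatine carriers of SLC6A and the nucleobase carrier SLC43A3, and SLC7A6OS, which lies opposite SLC7A6 and is not a transporter.

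After rounding, the estimated counts summed to 54878348 reads for DR and 35294662 for WT. Levels are given as CPM, counts scaled to library size after TMM normalisation, and 3 reads were worth 0.0539 and 0.0862 CPM. With 1 library per group there was no replicate check, and the calls rest on no test. A gene with at least 10 reads over both libraries was given a fold change and is counted as tested. Differences are log2 fold changes of the DR-labelled library over the WT-labelled library, on the scale of log2 (CPM + 0.5), with 95% Clopper-Pearson intervals that cover read counting only. A gene was called where this value was at least 1 in size, that is, about 2-fold. The label melanoma was compared with marker genes. Of 17 melanocytic genes, 15 had counts, and 1 (MITF) lay above the median of all genes in the DR-labelled library and 2 (MITF and GPNMB) in the WT-labelled library. MITF had most reads of them (34.5 CPM for DR and 34.8 for WT, the order in which all pairs of values are given), while SOX10 had 3 reads and 0 reads. TYRP1 was at 0 in the DR-labelled library, and SLC24A5 was at 0 in the WT-labelled library. The summed level of the melanocytic list was 72.9 and 81.3 CPM. Of 20 plasma cell genes, 17 lay above the median in each library, led by IGLL5, and their summed level was 14742 and 12449 CPM. This list was taken up because earlier results of these data showed such genes at high level. Its high level was thus known in advance and is no independent check of the label. Of these 20 genes, 6 were called higher in the DR-labelled library and 0 lower, against 7.42% and 4.19% of all genes tested. The cells are therefore named by their labels only, and the part of these marker levels in the values below was not tested.

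Of the 57 genes, SLC6A17 and SLC38A8 had no count in the table. Another 12 had under 10 reads over both libraries, at most 8, and were left out of the fold changes. Among them were SLC1A3, SLC1A7, SLC3A1, SLC6A2, SLC6A12, SLC6A13, SLC6A18, SLC7A9, SLC7A10, SLC38A4 and SLC38A11. SLC3A1 and SLC7A9 form the transporter of kidney and gut whose loss causes cystinuria, and they had 8 and 3 reads in all. The other 43 genes were tested, among 16210 genes in all.

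The levels of the transporters were set against all genes. The median CPM of all genes tested was 19.9 in the DR-labelled library and 19.7 in the WT-labelled library. Above it in both libraries lay 18 of the 43 transporters, against 46.9% of all genes tested. Per kilobase of gene length the number was also 18, against 47% of all genes, with SLC6A9 in place of SLC7A11. By CPM the 18 were SLC1A4, SLC1A5, SLC3A2, SLC6A6, SLC7A1, SLC7A5, SLC7A6, SLC7A6OS, SLC7A11, SLC38A1, SLC38A2, SLC38A5, SLC38A7, SLC38A9, SLC38A10, SLC43A1, SLC43A2 and SLC43A3. SLC6A9 and SLC7A2 lay above the median CPM in the WT-labelled library alone. The other 23 lay at or below it in both libraries, between 0.0539 and 18.4 CPM in the DR-labelled library and between 0.144 and 15.4 CPM in the WT-labelled library. Nearest to the median were SLC6A9 in the DR-labelled library, just below it at 19.2 CPM, and SLC7A6OS in the WT-labelled library, just above it at 21.2 CPM.

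**Figure D1:**
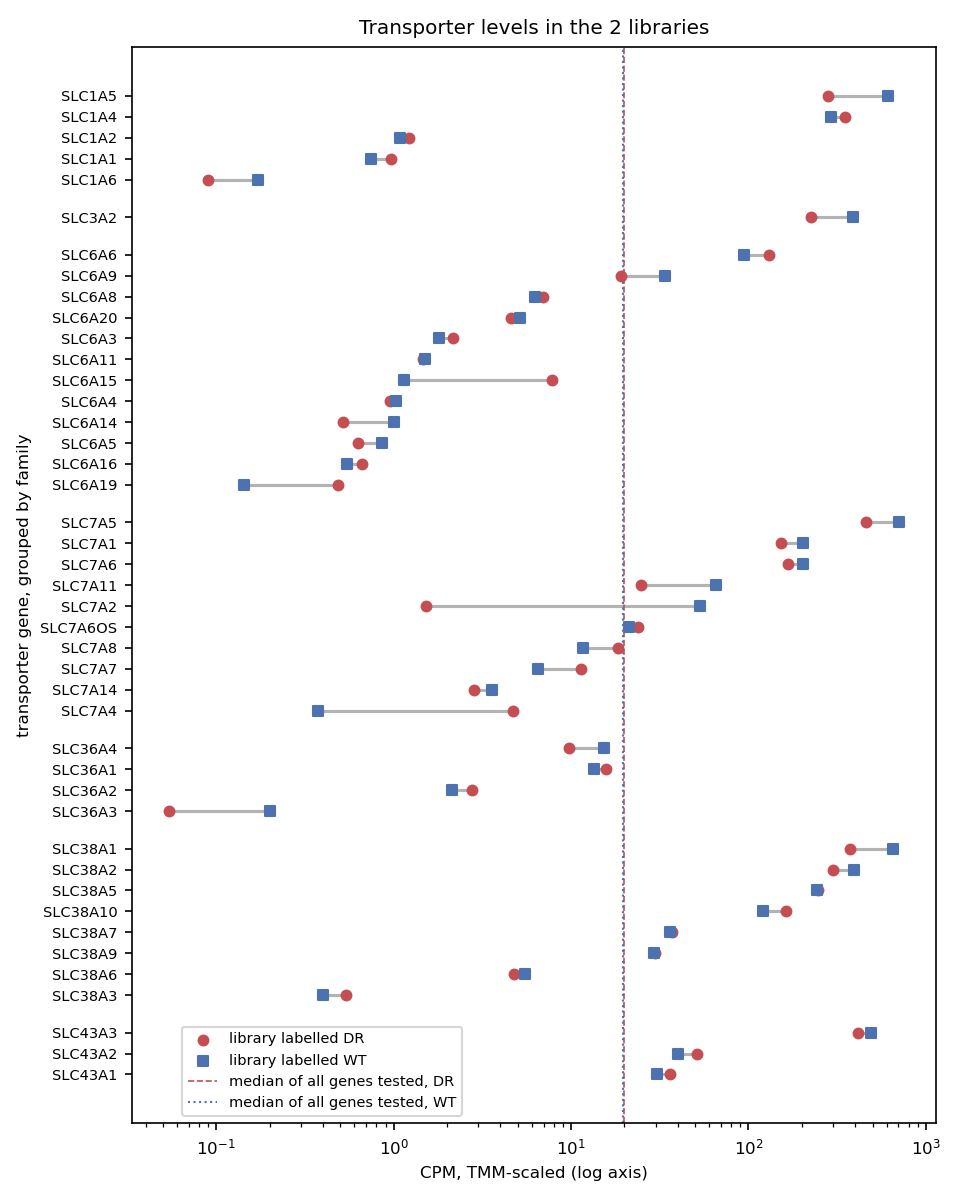
CPM of the 43 transporters tested, on a log axis, in the DR-labelled library (circles) and the WT-labelled library (squares), grouped by family, with the median of all genes tested in each library as vertical lines. The widest gap is that of SLC7A2, from 1.53 to 53.6 CPM, and 18 genes lie to the right of both lines in both libraries.

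By the fold change 2 transporters were called higher in the DR-labelled library, SLC7A4 and SLC6A15, against 7.42% of all genes tested. Lower in that library were 3, SLC7A2, SLC7A11 and SLC1A5, against 4.19% of all genes tested. The remaining 38 were not called. Of the 18 transporters above the median in both libraries 2 were called, SLC7A11 and SLC1A5, against 3.91% of such genes. By read counting alone, the interval lay above 0 for 12 transporters, against 35.4% of all genes, and below 0 for 13, against 34.9%. With at least 10 reads in 1 library and at most 3 in the other there were 0 transporters, against 3.15% of all genes. The 43 values had a median of 0.02, beside 0.01 over all genes tested, and ranged from -4.74 to 2.58. The summed level of the transporters was nevertheless lower in the DR-labelled library, at 3578 against 4793 CPM, a log2 ratio of -0.42 (-0.43 to -0.41). The sum and the median thus differed in sign. Of the 8 transporters with most CPM, SLC7A5, SLC38A1, SLC1A5, SLC43A3, SLC38A2 and SLC3A2 had less in the DR-labelled library, and SLC1A4 had more. SLC38A5 was near to equal (0.02, -0.02 to 0.06 on the log2 scale). The transporters took 0.363% of all reads (0.361% to 0.365%, exact binomial) in the DR-labelled library and 0.473% (0.470% to 0.475%) in the WT-labelled library.

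**Figure D2:**
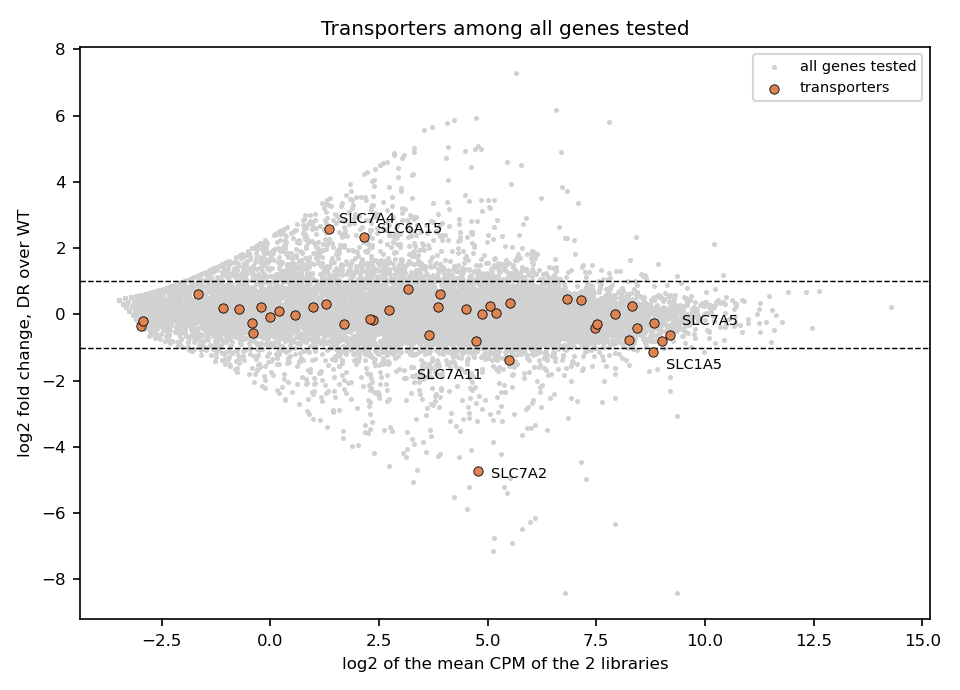
Log2 fold change of the DR-labelled library over the WT-labelled library against the log2 mean CPM for all 16210 genes tested (grey) and the 43 transporters (orange), with dashed lines at a log2 fold change of 1 in either direction. SLC7A4 and SLC6A15 stand above the upper line and SLC7A2, SLC7A11 and SLC1A5 below the lower one.

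The cationic branch of SLC7A held the transporters with the lowest and the highest log2 fold change, SLC7A2 and SLC7A4. SLC7A2 takes up arginine, lysine and ornithine and is inducible in immune cells. It had 85 reads in the DR-labelled library and 1866 in the WT-labelled library, or 1.53 and 53.6 CPM. The level was thus 35.1-fold higher in the WT-labelled library (28.3 to 44.2). The log2 fold change of SLC7A2 was -4.74 (-4.99 to -4.49), at percentile 0.111 of all genes tested, and was -3.17 with a pseudocount of 5 CPM and -5.05 with 0.1 CPM. It was the transporter with the largest change in size, and by CPM, with the minimum of 10 reads, it both crossed the median of all genes and was called. SLC7A11, also called, crossed the median per length and with a minimum of 50 reads. Of all genes tested 6.19% crossed the median in either direction, and 2.28% crossed it and were called.

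SLC7A1, the widely expressed carrier for the same amino acids, had 8469 and 7031 reads, or 152 and 202 CPM. Its log2 fold change was -0.41 (-0.45 to -0.36) and was not called. Per kilobase of gene length, SLC7A1 made up 99.1% of the summed level of SLC7A1 and SLC7A2 in the DR-labelled library and 79.8% in the WT-labelled library.

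SLC7A4 belongs to the same branch by sequence, and its substrate is not settled. It had 262 reads in the DR-labelled library and 13 in the WT-labelled library, or 4.71 and 0.374 CPM. Its log2 fold change of 2.58 (2.16 to 2.92) was the highest of the transporters. SLC7A4 lay below the median of all genes in both libraries, and with a pseudocount of 5 CPM the value was 0.85 and the call was lost. SLC7A14, the remaining member of the branch, had 2.84 and 3.59 CPM and was not called.

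The light chains were dominated by SLC7A5. This exchanger of leucine and other large neutral amino acids had 25458 reads in the DR-labelled library and 24559 in the WT-labelled library. The level was 457 and 706 CPM, the highest CPM of any transporter in either library, with a log2 fold change of -0.62 (-0.65 to -0.60). Its heavy chain SLC3A2, which brings the light chains to the cell surface, had 226 and 387 CPM and a log2 fold change of -0.77 (-0.81 to -0.74). Both lay lower in the DR-labelled library by less than the fold for a call.

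The partners were also compared per length, in CPM per kilobase. SLC3A2 stood at 104 in the DR-labelled library and 178 in the WT-labelled library. The 6 light chains that pair with it (SLC7A5, SLC7A6, SLC7A7, SLC7A8, SLC7A10 and SLC7A11) summed to 144 and 206. The light chains together were therefore 1.39 times SLC3A2 in the DR-labelled library and 1.16 times in the WT-labelled library. SLC7A5 made up 72.3% and 78.0% of the light chain sum and SLC7A6 made up 18.2% and 15.4%.

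SLC7A11, the light chain of the cystine and glutamate exchanger that feeds glutathione synthesis, was the light chain called. It had 1377 reads in the DR-labelled library and 2274 in the WT-labelled library, or 24.7 and 65.4 CPM. The log2 fold change was -1.38 (-1.48 to -1.29). The call was lost in an edgeR exact test that assumed a coefficient of variation of 0.4, as were those of SLC1A5 and SLC6A15. Per length, SLC7A11 made up 1.78% of the light chain sum in the DR-labelled library and 3.28% in the WT-labelled library. Per length it lay below the median of all genes in the DR-labelled library, at 2.56 against 6.45 CPM per kilobase, and above it in the WT-labelled library, at 6.77 against 6.42.

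The remaining light chains went in different directions without a call. SLC7A7 and SLC7A8 had more CPM in the DR-labelled library. SLC7A7, which exports cationic amino acids from epithelial cells and macrophages, had 11.4 and 6.52 CPM, a log2 fold change of 0.76 (0.55 to 0.97). SLC7A8, a second exchanger of neutral amino acids, had 18.4 and 11.7 CPM, a log2 fold change of 0.63 (0.46 to 0.79). SLC7A6, a relative of SLC7A7, had 167 and 202 CPM, a log2 fold change of -0.28 (-0.32 to -0.23). SLC7A6OS lies on the opposite strand, and no source used here says that the counting used strand. Reads from any overlap of the pair may therefore not have been told apart, and the overlap was not measured. SLC7A6OS had 23.8 and 21.2 CPM, a log2 fold change of 0.16 (0.03 to 0.29).

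**Figure D3:**
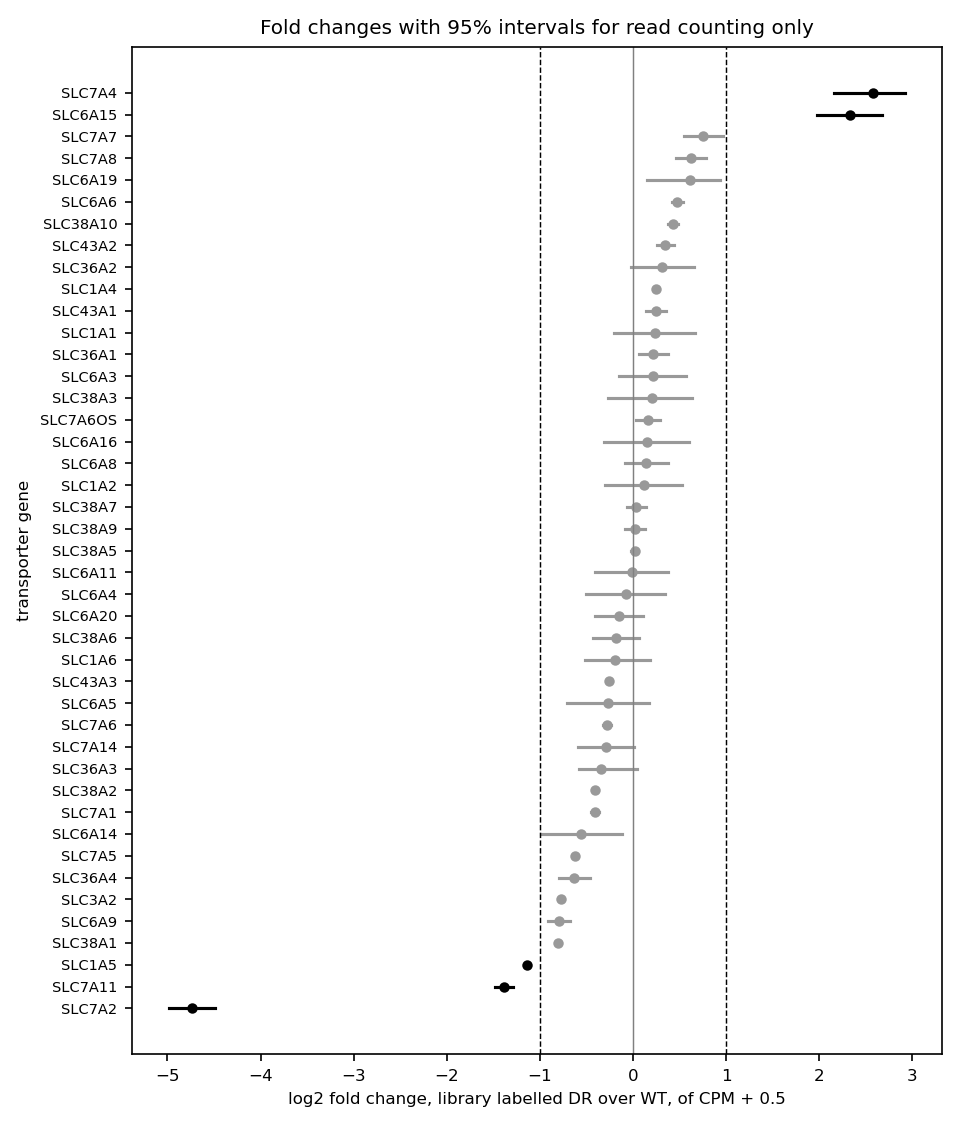
Log2 fold change (points) of each of the 43 transporters tested, sorted, with 95% intervals (bars) for read counting only, drawn in black where the value is at least 1 in size and in grey elsewhere. The intervals of the 5 called genes lie beyond the dashed lines, and those of the other 38 lie between them.

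The neutral amino acid exchangers of SLC1A were abundant in both libraries and went apart. SLC1A5, which takes up glutamine, had 15540 reads in the DR-labelled library and 21396 in the WT-labelled library, or 279 and 615 CPM. As a ratio of CPM without the added 0.5, the level was 2.20-fold higher in the WT-labelled library (2.16 to 2.25). The log2 fold change of SLC1A5, taken with the added 0.5, was -1.14 (-1.17 to -1.11). SLC1A5 was the called transporter nearest to the threshold, and it lost the call in the edgeR exact test at an assumed coefficient of variation of 0.2 as well as of 0.4.

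SLC1A4, which exchanges alanine, serine and cysteine, had 19372 and 10191 reads, or 348 and 293 CPM, with a log2 fold change of 0.25 (0.21 to 0.28). Per length SLC1A5 stood at 1.30 times SLC1A4 in the DR-labelled library and at 3.41 times in the WT-labelled library. The glutamate and aspartate carriers of the same family were almost without reads. SLC1A1, SLC1A2 and SLC1A6 had at most 1.22 CPM in either library, and SLC1A3 and SLC1A7 were under 10 reads.

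RefSeq promoter windows of GRCh38.p14, from 250 bases before a listed start to 50 bases after it, were matched by gene ID for 44 of the 57 genes, with 66 windows. Among the genes without a match were SLC1A2, SLC3A1, SLC6A2, SLC6A3, SLC6A6, SLC6A12, SLC6A15, SLC7A2, SLC7A4, SLC7A11, SLC38A3 and SLC43A3. Each window was searched on both strands for the C/EBP-ATF response element (TGATGNAA), the antioxidant response element (TGACNNNGC) and the E-box (CACGTG), which serve factors known to act on these families. The C/EBP-ATF letters occurred in 6 of the 66 windows (9.09%), those of SLC1A3, SLC1A4, SLC1A5, SLC3A2, SLC7A1 and SLC38A1, against 3.62% of 35116 windows of all genes. The antioxidant letters occurred in 7 windows (10.6% against 13.3%) and the E-box in 10 (15.2% against 7.26%). A match describes these letters alone. The windows of SLC3A2 and SLC7A5, the partners of the most abundant exchanger, and of SLC1A5, the called transporter with most reads, are shown with the matches in capitals. They were chosen after their matches had been seen, and lie at chr11:62881449-62881748 on the plus strand, chr16:87869458-87869757 on the minus strand and chr19:46784765-46785064 on the minus strand.
SLC3A2: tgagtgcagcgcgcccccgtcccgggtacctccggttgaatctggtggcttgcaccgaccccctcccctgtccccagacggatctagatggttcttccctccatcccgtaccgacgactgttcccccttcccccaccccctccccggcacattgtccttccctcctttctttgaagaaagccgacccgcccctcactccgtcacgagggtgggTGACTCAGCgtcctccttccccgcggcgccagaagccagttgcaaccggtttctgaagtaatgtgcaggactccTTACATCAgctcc
SLC7A5: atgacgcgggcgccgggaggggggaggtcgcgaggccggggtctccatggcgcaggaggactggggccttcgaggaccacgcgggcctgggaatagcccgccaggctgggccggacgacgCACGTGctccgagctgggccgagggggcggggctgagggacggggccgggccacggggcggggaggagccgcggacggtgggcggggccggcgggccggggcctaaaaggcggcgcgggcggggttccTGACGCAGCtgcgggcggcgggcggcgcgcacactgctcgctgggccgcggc
SLC1A5: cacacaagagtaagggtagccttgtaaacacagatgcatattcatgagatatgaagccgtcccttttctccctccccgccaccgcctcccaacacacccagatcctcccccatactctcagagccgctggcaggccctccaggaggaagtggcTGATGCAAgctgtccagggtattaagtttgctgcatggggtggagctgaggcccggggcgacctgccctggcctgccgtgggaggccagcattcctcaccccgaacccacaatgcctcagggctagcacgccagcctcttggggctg
Counted from the start as base 1, SLC3A2 held the antioxidant letters at -37 to -29 and the C/EBP-ATF letters, on the opposite strand, at 38 to 45. SLC7A5 held the E-box at -130 to -125 and the antioxidant letters at -2 to 7. The SLC1A5 window held the C/EBP-ATF letters at -97 to -90. The windows shown for SLC3A2 and SLC1A5 were each 1 of 3 listed for the gene, picked for their C/EBP-ATF match. Windows of SLC1A5 not shown held the antioxidant letters, on the opposite strand, at -111 to -103 and the E-box at -50 to -45.

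The SLC38A family held the largest share of transporter reads, 32.2% in the DR-labelled library and 30.9% in the WT-labelled library, and none of its 8 genes tested was called. SLC38A1 and SLC38A2 take up glutamine and alanine with sodium. SLC38A1 had 374 and 652 CPM, a log2 fold change of -0.80 (-0.83 to -0.77), which made it the uncalled transporter nearest to the threshold. SLC38A2 had 298 and 395 CPM, a log2 fold change of -0.41 (-0.44 to -0.37).

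SLC38A5, a glutamine carrier that works in both directions, had 246 and 242 CPM, a log2 fold change of 0.02 (-0.02 to 0.06). SLC38A10 had 163 and 121 CPM, a log2 fold change of 0.43 (0.38 to 0.48). The lysosomal members were near to equal by read counting. SLC38A9, the arginine sensor that signals to mTORC1, had 29.7 and 29.2 CPM (0.02, -0.09 to 0.13 on the log2 scale). SLC38A7, which exports glutamine from the lysosome, had 37.0 and 36.1 CPM (0.03, -0.07 to 0.14). SLC38A3 and SLC38A6 lay below the median of all genes, at most at 5.52 CPM.

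The SLC43A carriers were all above the median in both libraries. SLC43A3 is a purine nucleobase carrier despite its family name. It had 23006 and 17147 reads, or 413 and 493 CPM, and a log2 fold change of -0.25 (-0.28 to -0.23). SLC43A1 and SLC43A2, which let large neutral amino acids pass down their gradient, had 36.2 and 30.5 CPM and 51.2 and 40.1 CPM, with log2 fold changes of 0.24 (0.14 to 0.35) and 0.35 (0.26 to 0.44).

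Of the 4 SLC36A carriers, all lay below the median of all genes in both libraries and none was called. SLC36A1, a proton-driven carrier of small amino acids on the lysosome, had 15.6 and 13.4 CPM. SLC36A4, which takes up proline and tryptophan, had 9.75 and 15.4 CPM, a log2 fold change of -0.63 (-0.80 to -0.46).

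SLC6A, with 18 genes the largest family, was mostly low. Of its 12 genes tested, SLC6A6 was above the median in both libraries. SLC6A6, the taurine carrier, had 7309 and 3286 reads, or 131 and 94.4 CPM, a log2 fold change of 0.47 (0.41 to 0.53), and took 74.2% and 63.8% of the reads of the family. SLC6A9, a glycine carrier, had 1069 and 1175 reads, or 19.2 and 33.8 CPM, a log2 fold change of -0.80 (-0.92 to -0.68). SLC6A9 therefore crossed the median of all genes with 19.2 CPM just under it in the DR-labelled library, and was not called. Per length it lay above the median in both libraries.

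SLC6A15, a carrier of proline and branched-chain amino acids known from neurons, was the SLC6A gene called. It had 434 reads in the DR-labelled library and 40 in the WT-labelled library, or 7.80 and 1.15 CPM. The level was 6.78-fold higher in the DR-labelled library (4.90 to 9.63), a log2 fold change of 2.33 (1.98 to 2.68). SLC6A15 stayed below the median of all genes in both libraries, and with a pseudocount of 5 CPM the log2 fold change was 1.06.

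SLC6A19, a neutral amino acid carrier of gut and kidney, had 27 and 5 reads, a log2 fold change of 0.61 (0.15 to 0.93), and was called with a pseudocount of 0.1 CPM. SLC6A8, the creatine carrier, had 6.97 and 6.27 CPM. The dopamine carrier SLC6A3, the serotonin carrier SLC6A4, the GABA carrier SLC6A11, the glycine carrier SLC6A5 and the amino acid carriers SLC6A14, SLC6A16 and SLC6A20 had at most 5.17 CPM in either library. None of these was called.

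The order of levels per length differed between the libraries at the top. In the DR-labelled library the order was SLC43A3 (154 CPM per kilobase), SLC38A5 (129.6), SLC7A5 (104), SLC3A2 (104) and SLC1A5 (101). SLC3A2 did not differ from SLC7A5 or from SLC1A5 beyond counting error. In the WT-labelled library it was SLC1A5 (223), SLC43A3 (184), SLC3A2 (178), SLC7A5 (161) and SLC38A5 (128), each above the next by more than counting error. The same 5 genes led both libraries. They lay at percentiles 96.0 to 97.7 of all genes tested in the DR-labelled library and at 96.9 to 98.6 in the WT-labelled library.

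**Figure D4:**
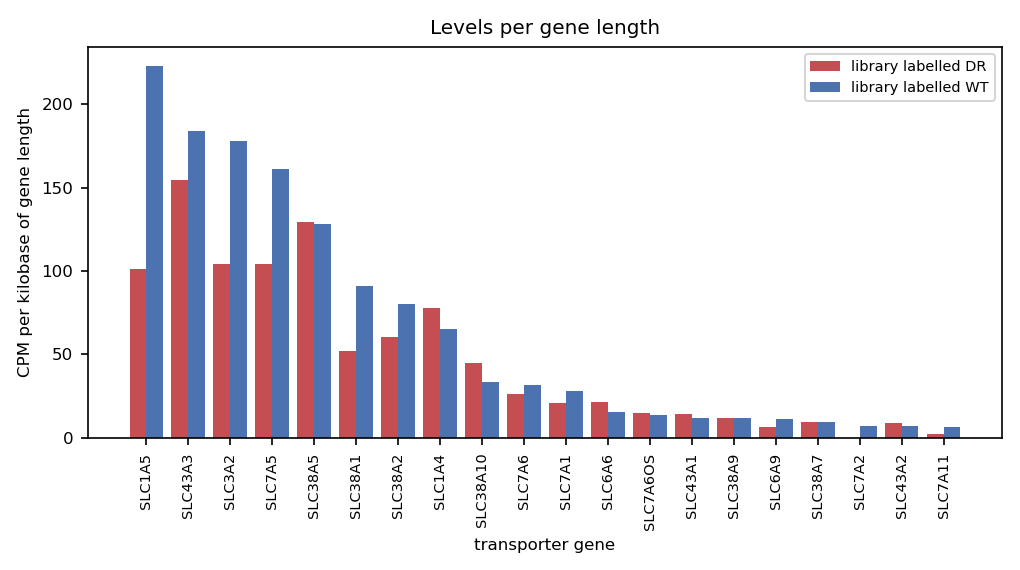
CPM per kilobase of gene length in the DR-labelled library (left bars) and the WT-labelled library (right bars), for the 20 transporters above the median CPM of all genes in at least 1 library, without error bars since there was 1 library of each. SLC1A5 is at 101 and 223, and SLC38A5 is at 129.6 and 128.

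By family, the summed CPM was lower in the DR-labelled library for all but SLC6A. The log2 ratio was -0.77 (-0.81 to -0.74) for SLC3A, -0.56 (-0.58 to -0.54) for SLC7A and -0.53 (-0.55 to -0.51) for SLC1A. It was -0.36 (-0.38 to -0.34) for SLC38A, -0.17 (-0.20 to -0.14) for SLC43A and -0.14 (-0.25 to -0.03) for SLC36A. For SLC6A it was 0.26 (0.21 to 0.31). Of the SLC6A sum, the carriers of amino acids went the other way, with a log2 ratio of -0.33 (-0.43 to -0.23) for their sum. SLC6A9 held 56.6% and 79.1% of the reads in that sum, while SLC6A15 was higher in the DR-labelled library (2.33). The carriers of GABA, taurine, creatine and monoamines, mostly SLC6A6, stood at 0.44 (0.38 to 0.50). SLC3A2 held nearly all reads of SLC3A, and SLC7A5 held 53.0% and 55.5% of those of SLC7A. SLC43A3 held 82.5% and 87.5% of those of SLC43A, and SLC1A5 held 44.3% and 67.6% of those of SLC1A. The median log2 fold change of the genes tested was opposite in sign to the sum in SLC1A (0.11), SLC38A (0.02) and SLC43A (0.24). It had the sign of the sum in SLC3A (-0.77), SLC7A (-0.29), SLC36A (-0.06) and SLC6A (0.06).

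Other genes of amino acid supply were described by 5 lists chosen from general knowledge. Of 14 other amino acid carriers tested, 0 were called higher and 1 lower in the DR-labelled library, with a median log2 fold change of -0.05. The gene was SLC15A4, a histidine and peptide carrier of the endolysosome, at 24.0 and 63.1 CPM (-1.38, -1.47 to -1.28 on the log2 scale). Of 24 enzymes of amino acid synthesis and conversion, 1 was called higher and 0 lower, with a median of -0.20. This was GLUL, glutamine synthetase, at 108 and 46.6 CPM (1.20, 1.13 to 1.28). Of 30 genes of amino acid sensing for mTORC1, 1 was called higher and 0 lower, with a median of 0.00. This was SESN3, a sestrin, at 46.3 and 19.4 CPM (1.23, 1.11 to 1.35).

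Of 12 regulators of these carriers, 0 were called higher and 1 lower, with a median of -0.46. The gene was ATF5 at 28.4 and 59.3 CPM (-1.05, -1.14 to -0.95). ATF4, the factor that binds C/EBP-ATF elements when amino acids run short, had 328 and 568 CPM (-0.79, -0.82 to -0.76). Its target ASNS, asparagine synthetase, had 115 and 157 CPM (-0.44, -0.49 to -0.39). ASNS was picked from the list of synthesis and conversion enzymes, whose median was -0.20. TRIB3, another of the regulators, was near to equal by read counting, at 41.9 and 43.5 CPM (-0.05, -0.15 to 0.04). The activity of ATF4 was not tested. NFE2L2, the factor of the antioxidant element, had 56.9 and 83.2 CPM (-0.54, -0.62 to -0.47). MYC had 976 and 561 CPM (0.80, 0.77 to 0.82). ATF4, ASNS, TRIB3, NFE2L2 and MYC were not called. Of 5 accessory proteins, 1 was called higher and 0 lower, with a median of 0.59. The gene was CD44, an adhesion receptor with a variant form that can hold SLC7A11 at the surface. CD44 stood at 210.1 and 43.7 CPM (2.25, 2.18 to 2.33), opposite in direction to SLC7A11, and its count does not separate its forms. These counts stand beside the 7.42% and 4.19% of all genes called higher and lower.

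The counts of 25 of the 43 transporters tested were fractional in either library, as they were for 9108 of the 18267 genes with counts, and such genes may share reads with others. SLC1A5, SLC7A2 and SLC7A11 were among them, while SLC7A4 and SLC6A15 had whole counts in both libraries. The split of shared reads was not tested.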

How the data were processed

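RNA of 1 DR-labelled library and 1 WT-labelled library had been sequenced. The authors deposited 1 table of 18930 genes with estimated counts per library, not scaled for depth, and the length of each gene. The submitters' processing notes name Bowtie 0.12.2 and hg19, and the counting tool is not given in the sources used here. The table also holds the authors' log2 ratio, p-value and q-value, which were not used. Estimated counts were rounded to whole numbers, and 663 genes had none. The 2057 genes below 10 reads in total were left out. Sizes were scaled by TMM (factors 1.01 and 0.986) in edgeR 4.0.16 under R 4.3.3, and log2 fold changes were taken of CPM plus a pseudocount of 0.5. A quasi-likelihood fit was impossible with 1 library per group, so a call is a log2 fold change of at least 1 with no test, and compares the libraries, not the conditions. Intervals cover counting error only, with each read taken as an independent draw. Reads carry no molecular identifiers, so that copies of the same molecule cannot be told apart and the intervals may be too narrow. Levels per length are CPM divided by the table's length. The calculation was tested on simulated data. Python 3.11.15, NumPy 2.4.6, SciPy 1.17.1, pandas 2.3.3 and DESeq2 1.42.0 were also used. All 57 genes matched RefSeq of GRCh38.p14 by gene ID. The table gives no coordinates, and those printed belong to RefSeq windows.

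The members and lists were chosen with earlier results of these data known. Named with values were transporters called, above the median CPM of all genes in at least 1 library, or with at least 10 reads in 1 library and at most 3 in the other, of which there were 0 among the 43 tested. Others described singly, such as SLC7A7, SLC6A19, SLC36A1, ATF4, ASNS and MYC, were chosen after their values were seen. As alternatives, libraries were scaled by totals or by DESeq2, the read minimum was dropped or set to 50, pseudocounts were 0.1 or 5 CPM, the log2 threshold was 2, and calls had to pass in addition an exact binomial test or an edgeR exact test at an assumed coefficient of variation of 0.2 or 0.4. Leaving out genes with fractional counts or SLC7A6OS was chosen after seeing the data.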

Additional observations from a re-analysis of the deposited data

How the results depend on the processing

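No paired analysis was possible because there was 1 library per group, and no fit left out a replicate. The numbers of transporters called, 2 higher and 3 lower in the DR-labelled library, stayed at 2 and 3 when libraries were scaled by DESeq2 or by totals, when the read minimum was dropped or set to 50, when an exact binomial test was required in addition, and without SLC7A6OS. A pseudocount of 5 CPM gave 1 higher, since SLC7A4 (0.85) was no longer past the threshold, and a pseudocount of 0.1 CPM added SLC6A19. A log2 threshold of 2 gave 1 lower, SLC7A2. Requiring an edgeR exact test at an assumed coefficient of variation of 0.4 gave 1 higher and 1 lower, SLC7A4 and SLC7A2, and at 0.2 it lost SLC1A5. Leaving out genes with fractional counts left 0 lower, since the 3 genes had such counts.

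The number of transporters above the median was 16 to 21 for DR and 19 to 21 for WT when taken per length or with another read minimum. The number that crossed it was 2 (SLC6A9 and SLC7A2), 2 per length (SLC7A2 and SLC7A11), 3 at a minimum of 50 reads (SLC6A9, SLC7A2 and SLC7A11) and 4 with no filter (SLC7A2, SLC7A8, SLC36A1 and SLC36A4), where more low genes set the median. Library totals moved the log2 ratio of the sums to -0.49 for SLC1A, -0.32 for SLC38A, -0.73 for SLC3A, -0.13 for SLC43A and -0.52 for SLC7A, since they shift all genes by 0.04. None of the 22 named transporters changed sign under these scalings and pseudocounts. ATF5 was not past the threshold with a pseudocount of 5 CPM, which left 0 regulators called lower. The depth leaves the 12 transporters under 10 reads undescribed, and the spread between cultures was not measured.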
